A study of Mus musculus with 5 samples.

Results

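The comparison set the array of the mouse embryonic stem cells (ESCs) named 2i ESCs beside the array of the mouse embryonic fibroblasts (MEFs) named 2n 2i MEFs. The samples were chosen because their titles share the number 15, and they are 2 of the 5 arrays of the study. Both were F1 cells of a 129X1/SvJ and MSM/Ms cross, as were the other samples, which are used below as points of reference. These were S ESCs (title number 36), 4n 2i MEFs (title number 2) and control MEFs (title number 4), each also 1 array. The labels give no treatment, passage or age, do not spell out S, 2n or 4n, and do not say how the MEFs were derived or whether each sample was 1 clone or a pool. That number 15 marks a common cell line is not stated either. The question taken from the labels and the study's title was which features of 2i ESCs were still seen in fibroblasts of that name, expression of imprinted genes included.

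ESCs hold a self-sustaining network of transcription factors around Oct4, Sox2 and Nanog, which is shut when cells become fibroblasts and the genes of connective tissue matrix are turned on. The 2i medium usually contains inhibitors of MEK and GSK3, and ESCs kept in it have low DNA methylation. Imprinted genes are expressed from the maternal or the paternal copy only, according to methylation that each copy brings from the egg or the sperm, and marks lost after fertilisation are as a rule not put back outside the germ line.

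RNA levels were read as linear intensity units of whole-transcript arrays, and 19938 genes had a probe set of their own. A gene was called on when its intensity reached the array's floor, the median of the probe sets of 1 gene. The floor was 241 units for 2i ESCs and 231 for 2n 2i MEFs, and 222 to 242 over all 5 arrays. Values under it hold an unknown share of background. With 1 array a group there was no replicate and no test, so differences are given as sizes and called at 2-fold. Precision is limited by the number of arrays, and fold differences are ratios of intensity + 1. No probe set had the same deposited value on an ESC and a MEF array, whereas 45.4% were identical between 2n 2i MEFs and control MEFs. Whether the values of the cell types were computed apart was not tested. Of 12 housekeeping genes, 11 lay within 2-fold between 2i ESCs and 2n 2i MEFs, with a median log2 difference of -0.05.

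The 2i ESCs and 2n 2i MEFs were different cell types on these arrays, and most genes that were on in both were at similar levels. Of 11285 genes that were on in at least one of them, 1879 (16.7%) were at least 2-fold higher in 2i ESCs and 2173 (19.3%) at least 2-fold lower. The remaining 7233 genes lay within 2-fold, and the median difference was 0.03 on the log2 scale, with an SD of 1.45 across genes. The shares of 16.7% and 19.3% stand beside each count of list members given below for this pair. There were 8567 genes on in both, of which 76.1% lay within 2-fold. A further 1367 were on in 2i ESCs alone and 1351 in 2n 2i MEFs alone. At least 32-fold differences were found in 42 genes higher and 65 lower in 2i ESCs. In RNA of whole cultures, fewer cells expressing a gene and less RNA per cell cannot be told apart.

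**Figure D1:**
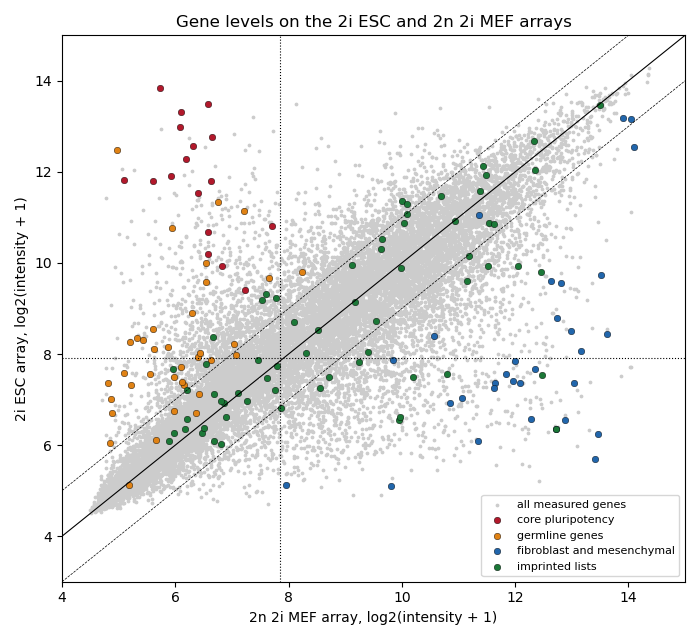
Level of each of 19938 genes on the 2n 2i MEF array (x axis) and the 2i ESC array (y axis), both as log2(intensity + 1). The solid line marks equal levels, the dashed lines 2-fold and the dotted lines each array's floor. All 17 core pluripotency genes lie in the upper left, above the 2i ESC floor and below the 2n 2i MEF floor, while 21 of the 43 imprinted genes compared lie between the dashed lines.

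The largest excess in 2i ESCs was in Dppa5a, an RNA-binding protein gene of early embryos, at 14606 against 52.3 units, a 274-fold difference. It was followed by Dazl, a germ cell translation regulator (182-fold), the Nodal co-receptor gene Tdgf1 (148), the orphan nuclear receptor gene Nr0b1 (145), Pou5f1, which encodes Oct4 (121), and Nanog (120.1). Bex1, Fbxo15, Zfp640, Utf1, Zfp42, Sox2, Dppa2, the epithelial cadherin gene Cdh1 and Tcl1, a co-activator of the kinase Akt, came next with differences from 109-fold down to 63.5-fold. All 15 were under the floor in 2n 2i MEFs. At the other end stood Postn, which encodes the matrix protein periostin, at 50.8 against 10900.0 units, 210.2-fold lower in 2i ESCs. It was followed by the collagen crosslinking enzyme gene Lox (149-fold lower), the small proteoglycan gene Aspn (148), the matrix glycoprotein gene Tnc (139) and the mesenchymal cadherin gene Cdh11 (126). Ccdc80, the protease gene Adamts5, Thbs2, Dcn, Col12a1, Bgn, Acta2, Prrx1, Thbs1 and Inhba completed the 15 genes, with differences between 103-fold and 78.4-fold. All of these were under the floor in 2i ESCs, so the folds at both ends depend on background in the darker array.

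No core pluripotency gene was still on in 2n 2i MEFs. All 17 measured members were on in 2i ESCs and at least 2-fold higher there, none reached the floor in 2n 2i MEFs, and the median difference was 6.09 (log2), against 0.03 over all genes. Pou5f1 (Entrez Gene 18999) had 8152 units in 2i ESCs and 8967 in S ESCs. It had 66.4 units in 2n 2i MEFs, 67.8 in 4n 2i MEFs and 72.3 in control MEFs. Nanog had 11536 units in 2i ESCs, 95.1 in 2n 2i MEFs and 94.4 in control MEFs, and Sox2 had 7023, 98.9 and 88.6 units in the same order. The 2n 2i MEF and control MEF values were thus alike and the ESC values stood far above them. The smallest difference of the list was in Lin28a, a blocker of let-7 microRNA maturation, at 673 against 149 units (4.5-fold).

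The naive pluripotency list was split between factors of the ESC network and receptors and factors that fibroblasts also express. All 15 members were on in 2i ESCs and 7 of them were also on in 2n 2i MEFs. The factor genes Esrrb (4155 against 77.4 units), Tfcp2l1 (7263 against 131) and Prdm14 (2067 against 97.6) were under the floor in 2n 2i MEFs. Of the factors that stayed above it, the zinc finger gene Klf5 had 7102 against 1153 units, the T-box gene Tbx3 4429 against 837 and Klf2 2482 against 698. Klf4 was the closest of them, at 2274 against 1243 units, within 2-fold, while control MEFs had 2325.

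The genes for reception of LIF, the cytokine that holds ESCs undifferentiated, were on in both cell types. Il6st, the shared signalling subunit, had 3365 units in 2i ESCs and 5483 in 2n 2i MEFs, and Stat3, the factor it activates, had 2149 and 4742. Lifr, the LIF receptor gene (Entrez Gene 16880), had 964 units in 2i ESCs and 988 in S ESCs. On the MEF arrays it had 460.2 (2n 2i), 544 (4n 2i) and 207 (control) units. The control MEF value of Lifr was thus the one under its floor, and the 2n 2i MEF value lay between it and the ESC values, 2.09-fold below 2i ESCs and 2.22-fold above control MEFs.

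Of 19 genes of the primed state and early lineages, 13 were on in 2i ESCs and 7 on in both. The 14 that were on in either had 7 at least 2-fold higher in 2i ESCs and 1 lower. The head-forming homeobox gene Otx2 (2991 against 61.9 units) and the Nodal antagonist gene Lefty2 (1363 against 37.8) showed the largest excess in 2i ESCs. The exception was Gata6, an endoderm and mesoderm factor gene, at 499 units in 2i ESCs and 1281 in 2n 2i MEFs, where control MEFs had 609.9. Eomes, a T-box factor gene of mesoderm and trophoblast, had 371 units in 2i ESCs, 118 in 2n 2i MEFs and 252 in control MEFs.

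The listed fibroblast genes were all on in 2n 2i MEFs. All 31 measured fibroblast and mesenchymal genes were on there, against 30 in control MEFs and 12 in 2i ESCs. Fap, the exception in control MEFs, had 247 units in 2n 2i MEFs, just over the floor, and 80.9 in control MEFs. Of the 31 genes, 28 were at least 2-fold lower in 2i ESCs than in 2n 2i MEFs, and the median was -4.28. Col1a1, a chain of type I collagen, had 349 units in 2i ESCs, 12632 in 2n 2i MEFs and 9870.1 in control MEFs. Pdgfra, a receptor that marks mesenchyme, had 121, 1844 and 1696 units in that order. The 3 within 2-fold were matrix genes that ESCs also expressed. These were Fn1, encoding fibronectin (9359 against 15325), Sparc, a collagen-binding protein gene (9133 against 16907), and Fbln1, encoding fibulin 1 (2111 against 2633). Of 13 contractile and TGF-beta response genes 12 were at least 2-fold lower in 2i ESCs. The inhibitory Smad gene Smad7 was the exception, at 1469 against 1288 units.

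Hox genes, which carry positional identity along the body axis, were largely off in 2i ESCs. Of 37 measured, 3 were on in 2i ESCs, 19 in 2n 2i MEFs and 1 in both, and 17 of the 21 compared were at least 2-fold lower in 2i ESCs. The brightest in the fibroblasts was Hoxc8, at 164 units in 2i ESCs, 4521 in 2n 2i MEFs and 7665 in control MEFs. Hoxc12 and Hoxc13, at the end of the Hoxc cluster, were on in 2i ESCs (836 and 372 units) and off in 2n 2i MEFs (123 and 105). Hoxa4 was on in both (302 and 292).

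Genes of the germline list, kept silent by promoter methylation in the soma, were nearly all under the floor in the fibroblasts. Of 36 measured, 19 were on in 2i ESCs and 1 in 2n 2i MEFs, and 18 of the 19 were at least 2-fold higher in 2i ESCs, with a median of 2.89. Dazl (Entrez Gene 13164) had 5692 units in 2i ESCs against 427 in S ESCs, and had the same 30.2 units on each of the 3 MEF arrays. Tuba3a, a testis tubulin gene, had 2252 units in 2i ESCs, 569.7 in S ESCs and 148 on each MEF array. Between the ESC arrays members of the list differed in both directions. Of 21 compared, 4 were at least 2-fold higher in 2i than in S ESCs and 3 lower, where 2.79% and 2.54% of all genes were. Lower were Mael, of the piRNA pathway (309 against 1641), the meiotic axis gene Sycp3 (163 against 836) and D1Pas1 (243 against 596). All 7 were under the floor in 2n 2i MEFs. Tuba3a has a near-identical copy, Tuba3b (317 units in 2i ESCs), from which its signal may not be separable. The meiotic chromosome axis gene Hormad1 (1749.5 against 60.2 units) and the X-linked homeobox gene Rhox9 (1015 against 92.0) were also higher in 2i ESCs than in 2n 2i MEFs. The gene still on was Rhox6, another homeobox gene of that cluster, at 890.1 units in 2i ESCs and 302 on every MEF array.

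**Figure D2:**
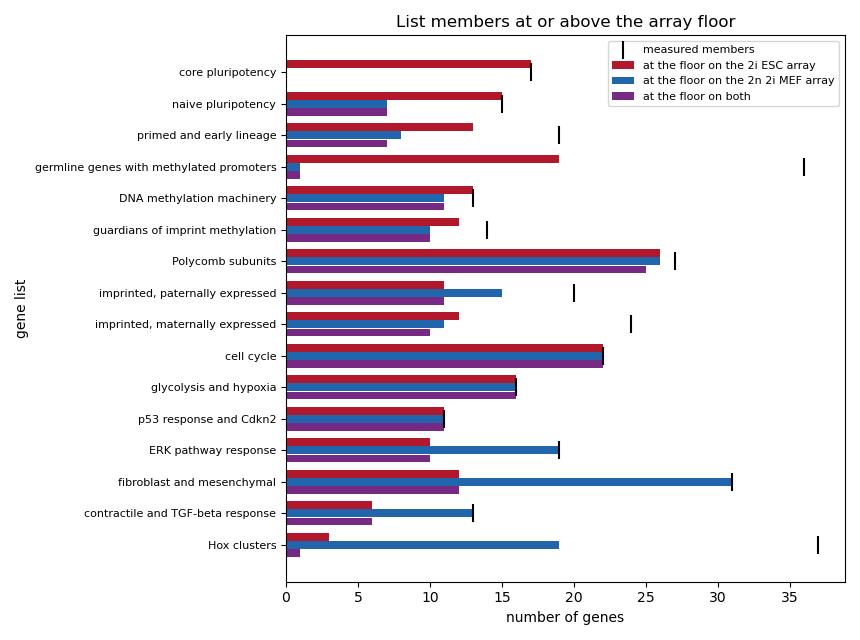
Number of members of 16 gene lists (y axis) that reached the array floor (x axis, number of genes) in 2i ESCs, in 2n 2i MEFs and in both, with the number measured as a black tick. Core pluripotency genes have no bar for 2n 2i MEFs, while all 22 cell cycle genes and all 16 genes of glycolysis and hypoxia reached the floor on both arrays.

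Maintenance methylation genes were on in both cell types, while most genes that set or remove methylation differed in level. Of 13 measured members of the methylation machinery all were on in 2i ESCs and 11 in 2n 2i MEFs, with 6 at least 2-fold higher and 3 lower in 2i ESCs. Dnmt1, the maintenance methyltransferase gene, had 3269 units in 2i ESCs and 1676 in 2n 2i MEFs, within 2-fold. Its partner Uhrf1, which brings it to newly copied DNA, had 3200.2 against 719.6 units (4.44-fold). With quantile normalization of the arrays Dnmt1 just passed 2-fold.

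The de novo enzyme genes Dnmt3a and Dnmt3b were lower in 2i than in S ESCs. Dnmt3a had 517 units in 2i ESCs, 1105 in S ESCs, 404 in 2n 2i MEFs and 276 in control MEFs. Dnmt3b had 373 units in 2i ESCs and 1667 in S ESCs, and was under the floor at 105 on each MEF array. Dnmt3l, their cofactor without catalytic activity, had 3342 units in 2i ESCs and 74.2 in 2n 2i MEFs. The oxidising demethylases parted by gene. Tet1 (6053 against 622 units) and Tet2 (2159.7 against 372) were higher in 2i ESCs, and Tet3 was lower (376 against 803, with a second probe set just within 2-fold). Mbd2, a reader of methylated DNA, was 8.48-fold lower in 2i ESCs (275 against 2334).

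Factors known to protect imprints from erasure were present on both arrays. Of 14 measured, 12 were on in 2i ESCs and 10 in 2n 2i MEFs, with 4 at least 2-fold higher in 2i ESCs and none lower. Zfp57, a zinc finger protein that binds methylated imprinting control regions, had 7220.2 units in 2i ESCs, 7077 in S ESCs, 1595 in 2n 2i MEFs, 2067 in 4n 2i MEFs and 2379.6 in control MEFs. It was thus on everywhere and 4.52-fold higher in 2i ESCs than in 2n 2i MEFs. Its corepressor Trim28 had 8084 against 3655 units, and the related zinc finger gene Zfp445 had 650.3 against 538, within 2-fold. Dppa3, a maternal protective factor, was on in 2i ESCs at 385 units and under the floor at 122 in 2n 2i MEFs, as was Khdc3 (864 against 86.6), an oocyte complex gene.

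Polycomb subunits, which place repressive histone marks, were nearly all on in both, with unlike levels. Of 27 measured, 25 were on in both, with 12 at least 2-fold higher and 4 lower in 2i ESCs and a median of 0.66. Ezh2, the methyltransferase gene, had 5691 against 2527 units, and the accessory subunit genes Jarid2 (6424 against 775) and Mtf2 (4563 against 606) differed more. Of the chromobox genes, Cbx7 was on in 2i ESCs alone (2263 against 201). Bmi1, a subunit of the complex that modifies histone H2A, was on in 2n 2i MEFs alone (185 against 726).

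Cell cycle and glycolysis genes were on in both cultures. All 22 cell cycle genes were on in both, 14 of them within 2-fold and 8 at least 2-fold higher in 2i ESCs, with a median of 0.86. The proliferation marker gene Mki67 had 2681 against 2594 units and the mitotic kinase gene Cdk1 6077 against 3592, whereas the replication helicase gene Mcm3 had 3216 against 918. All 16 genes of glycolysis and hypoxia were on in both, with 7 at least 2-fold higher in 2i ESCs and none lower. Ldha, the lactate dehydrogenase gene, was even (12807 against 12326), and Pfkp, the platelet-type phosphofructokinase gene, was 5.61-fold higher in 2i ESCs (5433 against 968). The lactate exporter gene Slc16a3 had 3755 units in 2i ESCs, 1401 in 2n 2i MEFs, 1112 in 4n 2i MEFs and 335 in control MEFs. The mitophagy gene Bnip3 had 4419, 1350.1, 1671 and 464 units in that order. For both of these the control MEF value was the lowest of the 5 arrays.

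Most ERK response genes were lower in 2i ESCs than in 2n 2i MEFs. Of 19, all were on in 2n 2i MEFs and 10 in 2i ESCs, and 13 were at least 2-fold lower in 2i ESCs, with a median of -2.05. The immediate early gene Egr1 had 108 units in 2i ESCs, 550.2 in S ESCs, 3050.3 in 2n 2i MEFs and 1635 in control MEFs. Dusp6, the ERK phosphatase gene, had 157, 1297, 1684 and 1771 units. The low values of 2i ESCs in these genes were not seen in 2n 2i MEFs. The ETS factor gene Etv5 was higher in 2i ESCs on its brighter probe set (4567 against 575), whereas its second probe set was even (643 against 711). Of 10 compared Wnt targets 4 were at least 2-fold higher and 2 lower in 2i ESCs, beside 16.7% and 19.3% of all genes. Among these targets were the feedback inhibitor gene Axin2 (448 against 163) and the receptor gene Lgr5 (67.3 against 2374). Of 11 genes of the p53 response and the Cdkn2 locus, all were on in both and 4 were lower in 2i ESCs. The kinase inhibitor gene Cdkn2b had 289.6 against 2627 units, and its neighbour Cdkn2a was even (481 against 431).

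X-linked genes were higher in 2i ESCs as a group. Among 389 X-linked genes compared, 147 (37.8%) were at least 2-fold higher in 2i ESCs and 57 (14.7%) lower, beside 16.7% and 19.3% over all genes. Their median was 0.61 (log2), while the medians of the 19 autosomes ran from -0.22 to 0.15. Xist, a noncoding RNA by which female cells silence one X, had 52.2 units in 2i ESCs and 150.5 in S ESCs, both under the floor. It had 1309.9 in 2n 2i MEFs, 4018 in 4n 2i MEFs and 2461 in control MEFs. Without the floor the X-linked median was 0.23. Between 2n 2i MEFs and control MEFs the X-linked median was 0.01 over 314 genes. Between 2i ESCs and S ESCs it was 0.29 over 367 genes, with 11.7% at least 2-fold higher in 2i ESCs and 1.91% lower. The autosome medians of that comparison ran from -0.08 to 0.02. Of 8 measured Y-linked genes, Sry had 251 units in 2i ESCs, just over the floor in cells that the series' title calls female, and the other 7 were under it on both arrays.

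Of imprinted genes past 2-fold between 2i ESCs and 2n 2i MEFs more were lower than higher in 2i ESCs, and 9 imprinted genes passed 2-fold between the 2n 2i and control fibroblasts. In the 4 imprinted lists 64 genes were measured and 43 were on in at least one array of the pair. Of these 43, 6 were at least 2-fold higher in 2i ESCs and 16 lower, with 21 within 2-fold. These shares of 14.0% and 37.2% stand beside 16.7% and 19.3% over all genes. Of 44 imprinted genes compared between 2i ESCs and control MEFs, 12 were at least 2-fold higher in 2i ESCs and 12 lower (27.3% each). Over all 11282 genes of that comparison 2055 were higher and 2086 lower. Between 2n 2i MEFs and control MEFs 9 of 42 imprinted genes passed 2-fold, where 1.91% of all 10130 genes compared did so (1.48% higher and 0.424% lower in 2n 2i MEFs). These were Mest, Plagl1, Peg10, Zdbf2, Slc38a4 and Smoc1, higher in 2n 2i MEFs, and Igf2r, Grb10 and Meg3, lower. The lists were chosen with earlier results of these data known, so the share of 9 of 42 is a description only. Slc38a4 and Smoc1 come from the list of genes whose imprint depends on histone marks or holds in few tissues. Each of these comparisons shares an array with the others, so the values are set side by side and no overlap is drawn from them.

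Sequence at the starts of these genes is shown as a description. Whether a window lies in a region that carries germline methylation was not examined. RefSeq windows of GRCm38.p6, 250 bases before to 50 after a start, were found for 7 of the 9 genes, 14 windows in all. Capitals mark TGCCGC on either strand (read as GCGGCA on the other), the bases that the imprint protector ZFP57 binds when their CpG is methylated. The motif overlaps no other one searched. It was found in 11.6% of 32851 such windows of all genes, and in 6 of the 14 windows, of 5 genes. The 2 matching windows of Mest overlap almost wholly and hold the same matches. Of each gene's windows the one with most matches is printed, a choice that favours matches.
Mest, chr6:30737800-30738099, plus strand: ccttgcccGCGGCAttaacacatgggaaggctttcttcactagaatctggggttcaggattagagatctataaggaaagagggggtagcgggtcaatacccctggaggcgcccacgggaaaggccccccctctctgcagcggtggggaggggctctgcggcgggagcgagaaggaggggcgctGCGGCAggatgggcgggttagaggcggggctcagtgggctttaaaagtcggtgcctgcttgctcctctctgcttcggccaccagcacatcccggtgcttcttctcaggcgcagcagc
Plagl1, chr10:13090582-13090881, plus strand: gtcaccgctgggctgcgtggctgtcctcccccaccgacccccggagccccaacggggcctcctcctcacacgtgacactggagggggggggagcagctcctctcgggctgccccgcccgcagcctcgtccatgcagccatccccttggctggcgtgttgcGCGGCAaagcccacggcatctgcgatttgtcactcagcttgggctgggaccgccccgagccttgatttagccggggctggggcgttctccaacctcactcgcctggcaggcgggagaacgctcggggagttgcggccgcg
Zdbf2, chr1:63200108-63200407, plus strand: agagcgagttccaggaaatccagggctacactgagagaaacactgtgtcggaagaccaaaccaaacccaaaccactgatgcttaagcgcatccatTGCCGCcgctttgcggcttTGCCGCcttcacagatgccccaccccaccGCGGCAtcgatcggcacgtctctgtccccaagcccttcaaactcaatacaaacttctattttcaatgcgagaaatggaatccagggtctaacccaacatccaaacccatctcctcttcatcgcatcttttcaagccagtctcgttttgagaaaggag
Grb10, chr11:12037371-12037670, minus strand: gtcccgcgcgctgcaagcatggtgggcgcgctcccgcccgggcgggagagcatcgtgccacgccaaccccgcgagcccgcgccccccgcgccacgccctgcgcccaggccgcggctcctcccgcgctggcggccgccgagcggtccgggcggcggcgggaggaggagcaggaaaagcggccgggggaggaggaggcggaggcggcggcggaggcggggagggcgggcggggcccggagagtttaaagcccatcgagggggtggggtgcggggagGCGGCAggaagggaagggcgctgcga
Igf2r, chr17:12769657-12769956, minus strand: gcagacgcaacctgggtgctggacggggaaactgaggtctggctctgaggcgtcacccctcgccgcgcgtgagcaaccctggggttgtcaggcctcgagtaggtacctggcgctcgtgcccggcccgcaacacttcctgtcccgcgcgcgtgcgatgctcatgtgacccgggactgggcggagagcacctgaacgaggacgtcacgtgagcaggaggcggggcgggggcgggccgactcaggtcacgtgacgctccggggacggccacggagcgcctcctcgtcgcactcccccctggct
Meg3, chr12:109540746-109541045, plus strand: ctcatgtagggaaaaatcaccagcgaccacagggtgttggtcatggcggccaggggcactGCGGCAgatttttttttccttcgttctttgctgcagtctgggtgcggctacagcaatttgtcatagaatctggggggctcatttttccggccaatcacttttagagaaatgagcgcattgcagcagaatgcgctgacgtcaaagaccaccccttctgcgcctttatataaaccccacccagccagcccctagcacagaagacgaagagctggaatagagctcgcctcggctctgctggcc
Slc38a4, chr15:97020310-97020609, minus strand: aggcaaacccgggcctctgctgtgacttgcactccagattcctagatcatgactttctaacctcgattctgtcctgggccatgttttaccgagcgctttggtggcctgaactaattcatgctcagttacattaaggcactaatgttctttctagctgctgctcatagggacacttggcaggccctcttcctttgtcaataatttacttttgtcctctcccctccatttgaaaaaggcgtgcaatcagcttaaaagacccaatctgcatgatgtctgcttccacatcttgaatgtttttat
The windows of Grb10 (45 CpG) and Igf2r (34) were the richest in CpG of those printed, followed by Plagl1 (26), Mest (17), Zdbf2 (15), Meg3 (13) and Slc38a4 (5), where the median of all windows was 7. Mest held 2 matches, Zdbf2 3, and Plagl1, Grb10 and Meg3 1 each, while Igf2r held none in its 1 window and Slc38a4 none in any of its 3. A match is a description of the letters and not of binding.

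Paternally expressed genes whose maternal copy carries germline methylation were on in 2n 2i MEFs more widely than in 2i ESCs. Of 20 measured, 15 were on in 2n 2i MEFs and 11 in 2i ESCs, none was at least 2-fold higher in 2i ESCs and 6 were lower, with a median of -0.66. Of the 14 compared between 2i ESCs and control MEFs, 4 were at least 2-fold higher in 2i ESCs and 3 lower, with a median of -0.18. The other MEF arrays, control and 4n 2i, each had 14 on, and S ESCs had 11. Against control MEFs, 4 of the 15 were at least 2-fold higher in 2n 2i MEFs and none lower, beside 1.48% and 0.424% of all genes. The median was 0.33, beside 0.00 over all genes. No value of the 15 was lower in 2n 2i MEFs than in control MEFs.

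Mest (Entrez Gene 17294), a gene of embryonic growth, had 1880.3 units in 2i ESCs and 1925 in S ESCs. It had 2978 in 2n 2i MEFs, 5875 in 4n 2i MEFs and 589 in control MEFs. Control MEFs were the lowest array, and 2n 2i MEFs lay 5.05-fold above them, within 2-fold of 2i ESCs (log2 difference of 2i ESCs from 2n 2i MEFs -0.66). Peg10 (Entrez Gene 170676), a retrotransposon-derived gene needed for the placenta, had 6518 and 6515 units in 2i and S ESCs. It had 5171 in 2n 2i MEFs, 3368 in 4n 2i MEFs and 2319.5 in control MEFs. Its 2n 2i MEF value was 2.23-fold above control MEFs and within 2-fold of 2i ESCs (log2 difference 0.33).

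Plagl1 (Entrez Gene 22634), a zinc finger regulator of growth, differed between the ESC arrays as well. It had 3062 units in 2i ESCs and 389 in S ESCs, and 2666 in 2n 2i MEFs, 5897 in 4n 2i MEFs and 1058 in control MEFs. The 2i ESC and 2n 2i MEF values differed by a log2 of 0.20, and each stood above its own comparison array, by 7.86-fold in ESCs and 2.52-fold in MEFs. Zdbf2, a gene of growth and feeding behaviour, had 1476 units in 2i ESCs and 2416 in S ESCs. It had 806 in 2n 2i MEFs, 728 in 4n 2i MEFs and 376 in control MEFs, so control MEFs were again the lowest array.

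The other paternally expressed genes were nearer to control MEFs. Sgce, a dystrophin complex gene beside Peg10, had 970.0 units in 2i ESCs, 2933 in 2n 2i MEFs and 1793 in control MEFs. Peg3, a zinc finger gene of maternal behaviour, had 1849, 3169 and 2243, and the neuronal gene Nnat 180.4, 1166 and 836. In each the 2n 2i MEF value was the highest of these 3 arrays, without reaching 2-fold over control MEFs. Ndn, of the Prader-Willi domain, had 980.1 units in 2i ESCs against 4239.6 in 2n 2i MEFs and 3757 in control MEFs. Airn, the antisense RNA that overlaps Igf2r, was under the floor in 2i ESCs (93.1) and S ESCs (75.3). It had 993 units in 2n 2i MEFs, 2444 in 4n 2i MEFs and 846 in control MEFs. Mcts2 (947, 1015 and 966 units in 2i ESCs, 2n 2i MEFs and control MEFs) and Inpp5f (369, 365 and 326) were even.

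**Figure D3:**
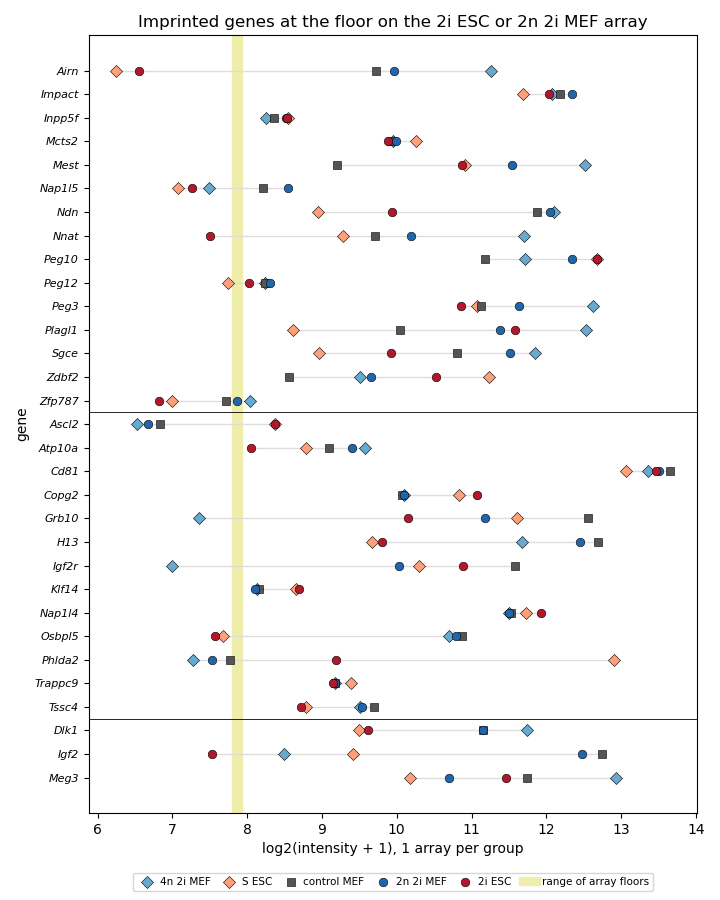
Levels of 31 imprinted genes (y axis) on the 5 arrays, 1 point per array, as log2(intensity + 1) on the x axis, with the range of the array floors shaded. From top to bottom the blocks hold paternally expressed genes and maternally expressed genes of domains with maternal germline methylation, and genes of domains with paternal germline methylation. Control MEFs are the lowest array for Mest, Peg10 and Zdbf2 and the highest for Igf2r and Grb10.

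Maternally expressed genes of the same kind of domain were lower in 2n 2i MEFs than in control MEFs in 2 members and within 2-fold in the rest. Of 24 measured, 12 were on in 2i ESCs, 11 in 2n 2i MEFs and 10 in both. Of the 13 compared, 2 were at least 2-fold higher in 2i ESCs and 4 lower. Against control MEFs 2 of 13 were at least 2-fold lower in 2n 2i MEFs and none higher, beside 0.424% and 1.48% of all genes. The median was -0.14, beside 0.00 over all genes.

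Igf2r (Entrez Gene 16004), the receptor that clears the growth factor Igf2, had 1891 units in 2i ESCs and 1259 in S ESCs. It had 1048 in 2n 2i MEFs, 126 in 4n 2i MEFs and 3048 in control MEFs. The 2n 2i MEF value was 2.91-fold below control MEFs and within 2-fold of 2i ESCs (log2 difference 0.85). Control MEFs were also within 2-fold of 2i ESCs, and nearer to them (log2 difference of 2i ESCs from control MEFs -0.69). Grb10 (Entrez Gene 14783), an adaptor that restrains insulin and growth factor receptors, had 1131 units in 2i ESCs and 3129 in S ESCs. It had 2326 in 2n 2i MEFs, 163 in 4n 2i MEFs and 6018 in control MEFs. Grb10 was lower in 2i than in S ESCs (2.77-fold) and lower in 2n 2i than in control MEFs (2.59-fold). Between 2i ESCs and 2n 2i MEFs its log2 difference of -1.04 became -0.99 with quantile normalization, so it lies at the 2-fold limit.

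Genes of the Kcnq1 domain differed between the cell types in both directions. Phlda2, which restrains placental growth, had 582 units in 2i ESCs and 7632 in S ESCs, and was under the floor in 2n 2i MEFs (185) and control MEFs (216). The trophoblast factor gene Ascl2 had 329.9 units in 2i ESCs and 101 in 2n 2i MEFs, and Osbpl5, a lipid transfer protein gene, 189 and 1771. Cdkn1c, a kinase inhibitor gene, was under the floor in 2i ESCs (214) and 2n 2i MEFs (220.3) and just above it in control MEFs (250.3). Elsewhere H13, a signal peptide peptidase gene, had 895 units in 2i ESCs, 5615 in 2n 2i MEFs and 6618 in control MEFs, and Trappc9 567, 578 and 578.

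The domains with paternal germline methylation had 3 of 8 measured genes on in the pair, with no common order. Meg3 (Entrez Gene 17263), a maternally expressed noncoding RNA, had 2829 units in 2i ESCs and 1152 in S ESCs. It had 1661 in 2n 2i MEFs, 7831 in 4n 2i MEFs and 3412 in control MEFs. Meg3 was higher in 2i than in S ESCs and lower in 2n 2i than in control MEFs. Its paternally expressed neighbour Dlk1, a regulator of differentiation, had 781 units in 2i ESCs, 2267 in 2n 2i MEFs and 2270.2 in control MEFs. Igf2 was under the floor in 2i ESCs (184) and had 5699.6 units in 2n 2i MEFs, 361 in 4n 2i MEFs and 6870.4 in control MEFs. The 2i ESC level of Igf2 was thus not seen in 2n 2i MEFs.

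Among genes whose imprint depends on histone marks or holds in few tissues, of 12 measured 4 were at least 2-fold higher and 4 lower in 2i ESCs. Over all genes of the pair 16.7% were higher and 19.3% lower. Slc38a4 (Entrez Gene 69354), an amino acid transporter gene with a paternally expressed copy in placenta, had 4467 units in 2i ESCs and 4594 in S ESCs. It had 2769 in 2n 2i MEFs, 2556 in 4n 2i MEFs and 1159 in control MEFs. Smoc1 (Entrez Gene 64075), a matrix protein gene that modulates BMP signalling, had 996 and 969 units in 2i and S ESCs. It had 558 in 2n 2i MEFs, 737 in 4n 2i MEFs and 103 in control MEFs. In both genes control MEFs were the lowest array. Gab1, Sfmbt2 and Jade1, which belong to this list, were higher in 2i ESCs than in 2n 2i MEFs by log2 differences of 1.37, 1.45 and 1.20.

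Genes that were on in 2i ESCs, on in 2n 2i MEFs and under the floor in control MEFs were few. There were 23 (0.115% of genes measured) for which 2i ESCs and 2n 2i MEFs each stood at least 2-fold above control MEFs. The mirror choice, genes on in 2i ESCs and control MEFs, under the floor in 2n 2i MEFs and at least 2-fold lower there than in either, gave 3 (0.015%). These were the citrate transporter gene Slc13a5, Eomes and the apoptosis gene Xaf1. The rule with control MEFs low selects on that array, and 2n 2i MEFs had more genes higher than lower against it in general (150 against 43). Of those 150 genes 45.3% were on in 2i ESCs, of the 43 lower ones 32.6%, and of all 10130 compared 85.4%.

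Of the 23 genes, 18 lay within 2-fold of 2i ESCs, 20 were also on in 4n 2i MEFs and 18 were on in S ESCs. The largest differences from control MEFs were in Des, Lrrn4, Smoc1, Capn6, Nefm, Sfrp4, Ahr, Trps1, St6gal1, Cpxm1, Ttc9 and Tmem108. Ahr, the receptor for aryl hydrocarbons, had 743 units in 2i ESCs, 833 in 2n 2i MEFs, 892 in 4n 2i MEFs and 208 in control MEFs. Trps1, a GATA-type repressor gene of skeletal development, had 421, 482, 437 and 146 units in that order. Ahr had similar values in 2i ESCs and the 2i MEF arrays. A second, dimmer probe set of Trps1 was under the floor in 2i ESCs (167 units) and 4n 2i MEFs (214), on in 2n 2i MEFs (336) and lowest in control MEFs (66.9), so whether Trps1 was on in 2i ESCs depends on the probe set. Capn6, a calpain family gene without protease activity, had 426 units in 2i ESCs and 101 in S ESCs. It had 891 in 2n 2i MEFs, 3071 in 4n 2i MEFs and 176 in control MEFs. The neurofilament gene Nefm was on in 2i ESCs (282) and 2n 2i MEFs (301) and under the floor in 4n 2i MEFs (92.9) and control MEFs (68.5). The 3 members that 2i ESCs exceeded by over 2-fold included Lifr and Zic2, a zinc finger gene of neural patterning and pluripotency, at 2955 units in 2i ESCs, 288 in 2n 2i MEFs and 126 in control MEFs. The remaining one, Six4, had 1087, 489 and 217 units and was named after its values were seen.

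**Figure D4:**
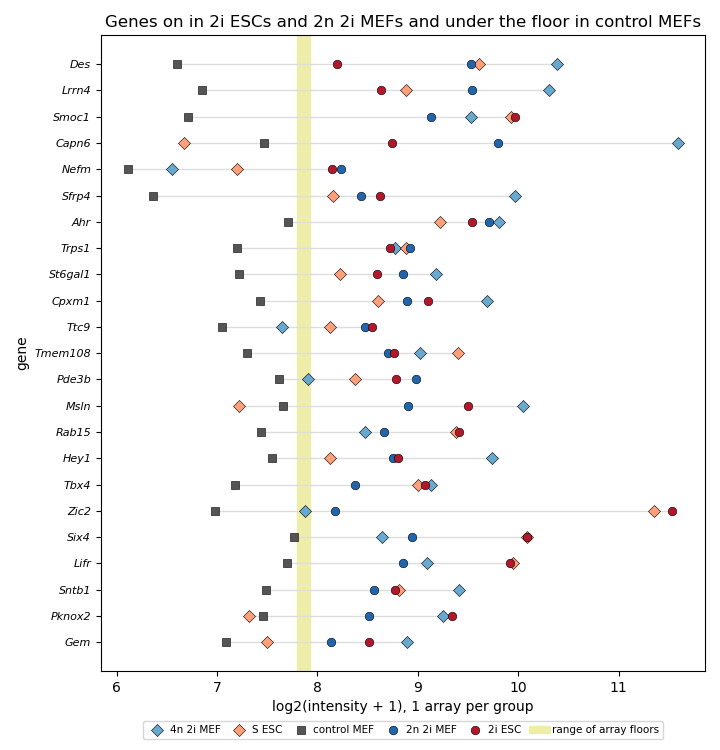
Levels of the 23 genes (y axis, ordered by the difference between 2n 2i MEFs and control MEFs) on the 5 arrays, as log2(intensity + 1) on the x axis, 1 point per array. The choice of genes puts control MEFs left of the shaded range of floors; 18 of the 23 have 2i ESC and 2n 2i MEF points within 1 unit of each other.

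Markers of other cell types did not all differ in 1 direction between 2n 2i MEFs and control MEFs. Of those compared, mesothelial ones were mostly higher in 2n 2i MEFs, and macrophage and endothelial ones mostly lower. Of 10 measured mesothelial markers 7 were on in 2n 2i MEFs or control MEFs, 5 of them at least 2-fold higher in 2n 2i MEFs and 1 lower (Bnc1, 510.5 against 1083). Over all genes compared 1.48% were higher and 0.424% lower. The 10 markers summed to 6045 units in 2n 2i MEFs, 2968 in control MEFs and 1942 in 2i ESCs. Upk3b, a defining marker, had 110.0 units in 2i ESCs, 1195 in 2n 2i MEFs and 160.0 in control MEFs. Lrrn4 (397, 740.4 and 114) and Msln (721, 476 and 201) belong to this list and to the 23 genes, and Des, an intermediate filament gene of muscle (291, 738 and 96.3), to the muscle list. Their part in the result was not tested. Of 9 measured muscle genes only 2 were compared between 2n 2i MEFs and control MEFs, and the one other than Des differed by a log2 of 0.01. Of 15 macrophage markers 2 were on in 2n 2i MEFs, Cd68 (347) and Lyz2 (429), while the defining genes Ptprc (85.2) and Adgre1 (44.9) were under the floor. Cdh5 (105) of the endothelium and Epcam (59.6) of epithelia were under it too. Of 14 epithelial markers, however, 5 were on in 2n 2i MEFs and 3 in control MEFs. Of the 5 compared, 4 were higher in 2n 2i MEFs and 1 lower, none by 2-fold, with a median of 0.43. Of 11 endothelial markers 5 were compared between 2n 2i MEFs and control MEFs, with a median of -0.52 and sums over the 11 of 4156 and 6036 units. The surface gene Emcn was higher in 2n 2i MEFs (362 against 58.9) and the receptor gene Flt1 lower (664 against 1452), and the other 3 were lower by less than 2-fold.

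In the opposite direction, genes on in control MEFs and both under the floor and at least 2-fold lower in 2i ESCs and in 2n 2i MEFs numbered 5 (0.0251%). These were Entpd1, which hydrolyses extracellular ATP, the protease gene Bace2, Ctla2a, Cyp4a12a and Ctla2b. Entpd1 had 56.1 units in 2i ESCs, 208 in 2n 2i MEFs and 696 in control MEFs, and the first 2 values are under the floor. The mirror choice, on in 2n 2i MEFs and both under the floor and at least 2-fold lower in 2i ESCs and in control MEFs, held 52 genes (0.261%). It was led by the interleukin 1 receptor antagonist gene Il1rn (73.8, 1303 and 101 units in 2i ESCs, 2n 2i MEFs and control MEFs), Upk3b, the carbonyl reductase gene Cbr2 and the granzyme gene Gzmd. Of the 150 genes higher in 2n 2i MEFs than in control MEFs, 82 were under the floor in 2i ESCs and 68 on.

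ESC genes were also chosen on other arrays. Genes on in S ESCs and at least 2-fold higher there than in 4n 2i MEFs numbered 2380, a choice that uses neither array of the pair nor control MEFs. It leaves out ESC genes also high in 4n 2i MEFs, such as Mest (1925 units in S ESCs, 5875 in 4n 2i MEFs). Of the 23 genes above, 18 were at least 2-fold higher in 4n 2i MEFs than in control MEFs. The shares below thus do not cover genes left out in this way. Of the 2380 genes, 885 were under the floor in both 2n 2i MEFs and control MEFs. Over the other 1495 the median difference of 2n 2i MEFs from control MEFs was 0.03, with 247 identical values. At least 2-fold higher in 2n 2i MEFs were 7 (0.468%) and lower 6 (0.401%), beside 1.48% and 0.424% of all genes compared under the same floor. The 7 were Ak4, Coch, Six4, Slc16a3, Slc29a1, Zdbf2 and Zic2, and the 6 were Fgf10, Grb10, Igf2r, Lrp2, Slc13a5 and Xaf1. Zdbf2, Grb10 and Igf2r are imprinted, and the last 2 entered this set because they were low in 4n 2i MEFs. Of genes on in 4n 2i MEFs and at least 2-fold lower in S ESCs, 2033 were compared, of which 92 (4.53%) were at least 2-fold higher in 2n 2i MEFs and 21 (1.03%) lower. That choice takes genes high in 4n 2i MEFs. Of the 52 genes above that were on in 2n 2i MEFs, 40 were at least 2-fold above control MEFs in 4n 2i MEFs too. The share higher in 2n 2i MEFs thus depends on the choice. The counts of 18 and 40 reuse the control MEF array, on which the 23 and 52 genes were chosen as low. No share over all genes is set beside them, so no likeness of the 2i MEF arrays is drawn from them. Ak4, a mitochondrial adenylate kinase gene, had 7986 units in 2i ESCs, 1306 in 2n 2i MEFs and 577 in control MEFs. The genes named in this set were listed after their values were seen.

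Finally the difference of 2i ESCs from S ESCs was set beside that of 2n 2i MEFs from control MEFs, which share no array. At least 2-fold differences between the ESC arrays were found in 5.33% of 10461 genes, 2.79% higher and 2.54% lower in 2i ESCs. Of 8946 genes that could be compared in both, 20 (0.224%) passed 2-fold in each, 10 in the same and 10 in opposite directions (0.112% each). Over these genes the differences had a Pearson r of -0.07, a description across genes that share the arrays' probes. Of 123 genes higher in 2i ESCs, 8 were higher and 4 lower in 2n 2i MEFs (6.50% and 3.25%). Of 169 lower ones, 6 were higher and 2 lower (3.55% and 1.18%), and of all 8946 genes 0.816% and 0.156%.

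The genes higher in both were Capn6, Plagl1, the zinc finger gene Glis3, the interleukin 13 receptor gene Il13ra1, the mesothelial surface gene Msln, the growth factor binding protein gene Igfbp4, the homeobox gene Pknox2 and the small GTPase gene Gem. Those lower in both were Grb10 and the focal adhesion kinase relative Ptk2b. Il13ra1 had 641 units in 2i ESCs and 270.2 in S ESCs, and 1698 in 2n 2i MEFs and 384 in control MEFs. Ptk2b had 266, 588, 636 and 1426 units in that order. The imprinted Plagl1 and Grb10, given above, were thus among the 10 genes with like differences, and the imprinted Meg3 among the 10 with opposite ones. Of these 20, Gem, Pknox2 and Kif21b were under 2-fold in MEFs with quantile normalization, and Gem, Cd55, Npr3 and Xaf1 were under it in one cell type or both with a pseudocount of 16.

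**Figure D5:**
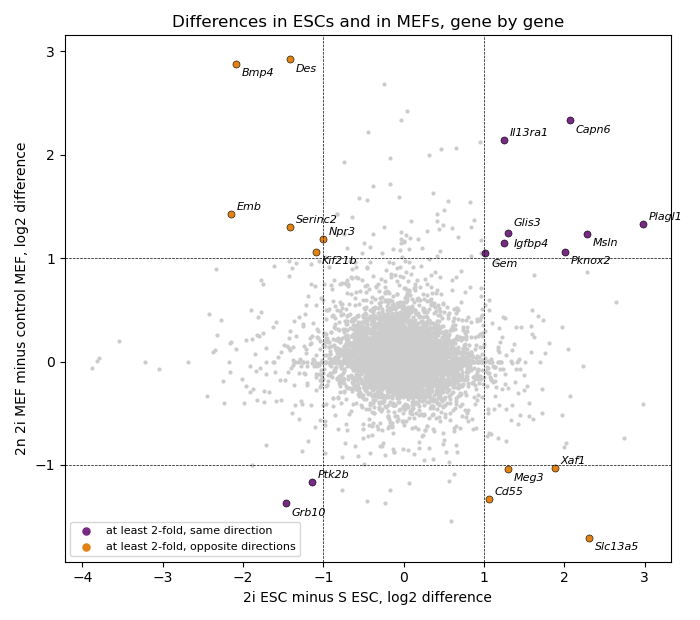
Log2 difference of 2i ESCs from S ESCs (x axis) and of 2n 2i MEFs from control MEFs (y axis) for 8946 genes (grey), with dashed lines at 2-fold. The 20 named genes pass 2-fold in each, 10 in the same direction (purple, among them Plagl1 and Grb10) and 10 in opposite directions (orange, among them Meg3).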

How the data were processed

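Total RNA of 5 samples was biotinylated and hybridised to whole-transcript arrays, per the labels' protocols. Linear intensity for 28853 probe sets on each array came from the matrix the authors deposited, and its background correction and normalization are not given in the sources used here. Of the probe sets 21789 had 1 gene symbol in the platform table, 1621 several and 5443 none. Symbols were updated by Entrez Gene number (21698 matched, RefSeq GRCm38.p6), and the brightest probe set on average stood for each of 999 genes that had more than 1. Values were taken as log2(intensity + 1). A comparison used genes that reached the floor on at least one array and called 2-fold differences, with no test. The rule for genes on in 2i ESCs and 2n 2i MEFs but not control MEFs was run on simulated arrays with planted shifts. The planted genes were picked as able to meet the rule, so this checks the code and not the classes found. Genes named were the 15 highest and lowest of the pair, the 12 largest of each class, genes past 2-fold in both ESCs and MEFs, imprinted, X inactivation and Y-linked genes, and up to 4 per other list and comparison. Further list members are named for their role, with values known. The members and the 32 lists (555 genes, 487 measured) were chosen with earlier results of these data known. List members such as H19, Snrpn and Kcnq1ot1 were not analysed here. Alternatives were leaving out the floor, raising it to the 75th percentile, quantile normalization, averaging probe sets, a pseudocount of 16 and 3-fold. Python 3.11.15, numpy 2.4.6 and pandas 2.3.3 were used.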

Additional observations from a re-analysis of the deposited data

Results flagged for a closer look

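For 10 genes the difference between the 2i sample and its comparison sample passed 2-fold in opposite directions in ESCs and in MEFs (log2, 1 array each, so the difference between the cell types was not tested). Higher in 2i ESCs than in S ESCs and lower in 2n 2i MEFs than in control MEFs were Slc13a5 (2.31 and -1.71), Cd55 (1.07 and -1.33), Meg3 (1.30 and -1.04) and Xaf1 (1.88 and -1.03). The reverse was found for Bmp4 (-2.09 and 2.88), Emb (-2.15 and 1.42), Des (-1.42 and 2.92), Serinc2 (-1.42 and 1.30), Kif21b (-1.10 and 1.06) and Npr3 (-1.005 and 1.18). Bmp4, a morphogen gene, had 493 units in 2i ESCs, 2101 in S ESCs, 1813 in 2n 2i MEFs and 245 in control MEFs.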

How the results depend on the processing

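No paired analysis was possible because each group had 1 array. Quantile normalization and the mean of a gene's probe sets left every count within 1.5 times and every median within 0.1. Genes higher and lower in 2i ESCs than in 2n 2i MEFs numbered 999 and 1319 with the floor at the 75th percentile, and 975 and 1260 at 3-fold. The set of 23 genes on in 2i ESCs and 2n 2i MEFs became 47 without the floor, 8 at the higher floor and 6 at 3-fold. Its mirror of 3 became 0 at the higher floor and 1 at 3-fold. Genes low in 2i ESCs and 2n 2i MEFs (5) became 36 without the floor, 19 at the higher floor, 3 with a pseudocount of 16 and 1 at 3-fold, and their mirror of 52 became 106 without the floor, 30 at the higher floor and 17 at 3-fold. The median of paternally expressed imprinted genes between 2n 2i MEFs and control MEFs was 0.17 without the floor and 0.49 at the higher floor. Without the floor, medians between 2i ESCs and 2n 2i MEFs were -0.29 for paternally expressed, 0.22 for maternally expressed imprinted genes (-0.03 with it) and 0.23 for X-linked genes. Imprinted genes at least 2-fold apart in the pair (22) became 13 at the higher floor and 12 at 3-fold. Of single-gene differences of at least 2-fold, none changed sign with quantile normalization, averaged probe sets or a pseudocount of 16, the settings tried for single genes. Calls of single genes at 2-fold moved in 29, 3 and 23 cases in that order, and stayed in 1708, 1734 and 1714. Signal near background limits folds against values under the floor.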
